A study of Homo sapiens with 16 samples.

Results

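The genes described here encode the 4 kinases that phosphorylate the translation initiation factor eIF2 and the proteins that switch this phosphorylation on and off. They are EIF2AK1, EIF2AK2, EIF2AK3 and EIF2AK4, the GCN2 regulators GCN1 and IMPACT, and the phosphatase subunits PPP1R15A and PPP1R15B. The 8 genes were chosen by name for their function out of 62754 gene identifiers in the counts, and all 8 passed the filter on low counts that left 18549 tested genes. Transcript counts came from LNCaP, a human prostate cancer cell line that expresses the androgen receptor, grown in medium with serum. The 4 groups of 4 libraries each were p53 KO cells given GCN2iB, p53 KO cells given vehicle, wild-type (WT) cells given GCN2iB and WT cells given vehicle. GCN2iB, an inhibitor of the kinase GCN2, was used at 5 µM for 48 h, the vehicle was DMSO, and p53 had been knocked out with CRISPR. Whether the knockout line is a single clone is not said in the labels, nor whether the 4 replicates were grown apart. The p-values below therefore speak for the scatter among these libraries, which may be technical.

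When eIF2 is phosphorylated on its alpha subunit it blocks its own exchange factor, eIF2B, and the initiation of translation slows on most mRNAs while a few, ATF4 among them, are translated more. This is the integrated stress response. EIF2AK1 encodes HRI, which responds to low heme and to mitochondrial stress, EIF2AK2 encodes PKR, which binds double-stranded RNA, EIF2AK3 encodes PERK, a sensor in the endoplasmic reticulum, and EIF2AK4 encodes GCN2, which senses uncharged tRNA and stalled ribosomes. GCN1 binds GCN2 on ribosomes and is needed for its activation, and IMPACT competes for GCN1 and holds GCN2 back. PPP1R15A (GADD34), made under stress, and PPP1R15B (CReP), made constitutively, bring protein phosphatase 1 to eIF2 and remove the phosphate. Kinase activity and eIF2 phosphorylation themselves were not measured here, and a change of a transcript is not a change of its protein.

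Counts summed to between 17418072 and 39915685 per library, and a mean ± SD below is over the 4 libraries of a group. All 10 luminal prostate markers were detected and summed, in CPM (counts scaled to the library total) per library, 5162 to 5491 in p53 KO with GCN2iB, 5750 to 5884 in p53 KO with vehicle, 5454 to 5614 in WT with GCN2iB and 6281 to 6513 in WT with vehicle. Of 11 markers of immune, stromal, endothelial and basal cells 4 had at least 10 counts in a library: COL1A1, COL1A2, VWF and KRT14. All 11 summed to 27.1 to 30.7 CPM in p53 KO with GCN2iB, 28.5 to 34.0 CPM in p53 KO with vehicle, 37.0 to 44.4 CPM in WT with GCN2iB and 39.8 to 45.2 CPM in WT with vehicle. Group means were 12.7 to 20.4 CPM for stromal COL1A1, 9.72 to 21.0 CPM for endothelial VWF and 2.46 to 3.58 CPM for basal KRT14. PTPRC, CD3E, KRT5 and TP63 had at most 2 counts in any library. The part of either marker list in the results below was not tested. CDKN1A, a target that p53 activates, was lower in p53 KO than in WT cells with vehicle (log2 -2.87 ± 0.10 SE, adjusted p = 1.23e-14) and with GCN2iB (log2 -3.43 ± 0.11 SE, adjusted p = 1.90e-15), and MDM2, another p53 target, was lower as well (log2 -1.0 with vehicle and -1.18 with GCN2iB). Replicate 4 of p53 KO with GCN2iB stood below the other 3 libraries of its group for 7 of the 8 genes, as described further on.

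Per kilobase of annotated exon, EIF2AK1 and GCN1 were the most abundant of the 8 transcripts and PPP1R15A the least. In WT cells with vehicle the levels were 49.2 ± 1.58 CPM per kb for EIF2AK1, 42.1 ± 2.08 for GCN1, 17.1 ± 1.56 for PPP1R15B and 16.4 ± 1.44 for IMPACT. Below them came EIF2AK4 with 11.6 ± 0.851 CPM per kb, EIF2AK3 with 6.84 ± 0.531, EIF2AK2 with 4.87 ± 0.601 and PPP1R15A with 2.01 ± 0.2395. The libraries of PPP1R15B and IMPACT overlapped in all 4 groups, as at 13.1 ± 0.572 and 12.99 ± 0.241 CPM per kb in WT cells with GCN2iB. Those of EIF2AK1 and GCN1 overlapped in both GCN2iB groups, at 41.98 ± 1.43 and 39.3 ± 3.01 CPM per kb in p53 KO cells and 44.8 ± 0.542 and 45.7 ± 2.59 in WT cells, and in neither vehicle group. All other neighbours in the order were apart in every group, and the order of the means was the same in the 4 groups but for GCN1 standing first in WT cells with GCN2iB. It depends on the length used for EIF2AK4: all its exons join to 11957 bases but its longest coding transcript has 5499, and per kilobase of the longest coding transcript it stood next after GCN1 with 25.1 CPM per kb in WT cells with vehicle.

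**Figure D1:**
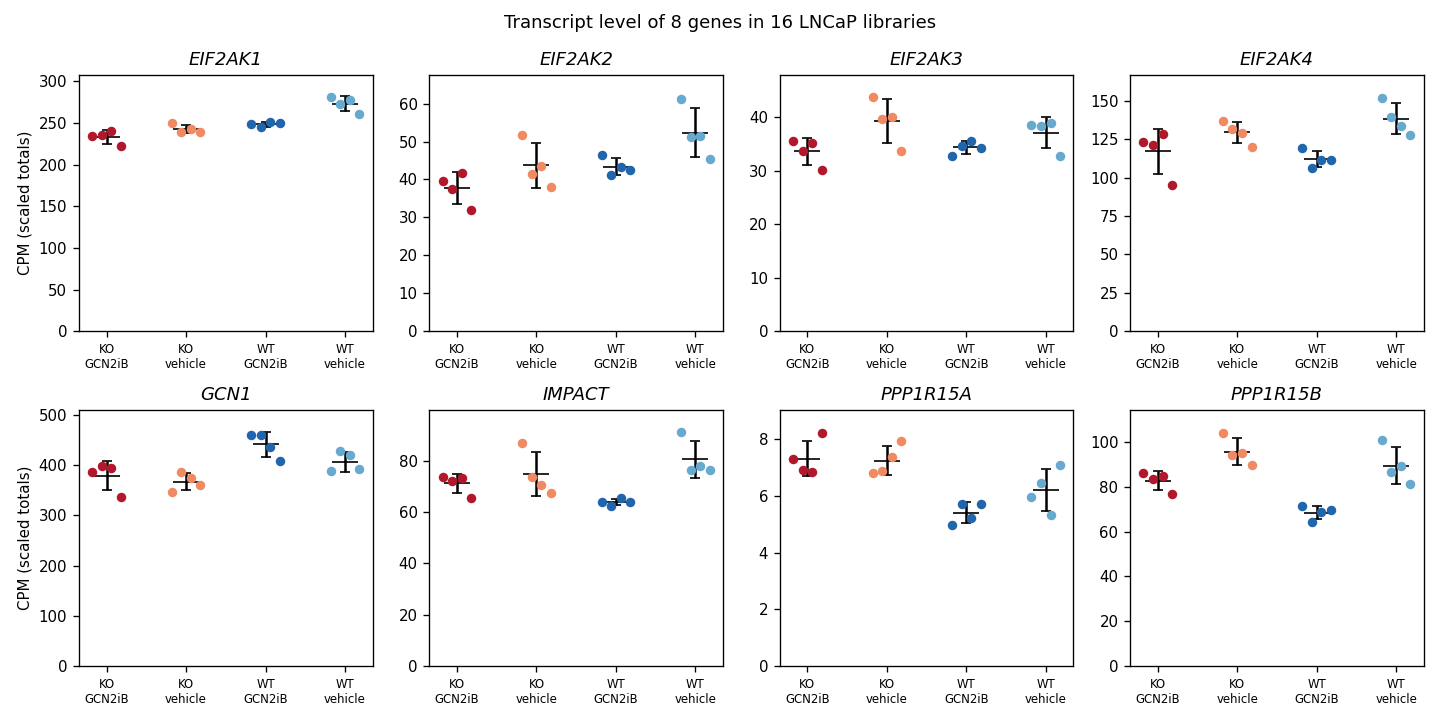
Transcript level of each of the 8 genes in CPM on scaled totals (vertical axis, from 0) in the 16 libraries, ordered within a group by replicate number. Points are libraries, bars are mean ± SD over 4 libraries; IMPACT and PPP1R15B show WT libraries with GCN2iB below all WT libraries with vehicle, and PPP1R15A shows p53 KO libraries with GCN2iB above all WT libraries with GCN2iB.

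The transcript of the drug's own target, EIF2AK4, was lower in WT cells given GCN2iB. In these cells 5 of the 8 genes fell, EIF2AK4, IMPACT, PPP1R15B, EIF2AK1 and EIF2AK2, and 0 rose, where 25.2% of all tested genes were called, 11.6% as higher and 13.6% as lower (edgeR quasi-likelihood test, Benjamini-Hochberg over all tested genes, threshold 0.05). The changes were small, -23.2% for PPP1R15B, -20.5% for IMPACT, -18.9% for EIF2AK4, -16.99% for EIF2AK2 and -9.01% for EIF2AK1. The groups did not overlap for 4 genes, all lower, against 26% of all tested genes in either direction. The falls of EIF2AK4, IMPACT and PPP1R15B passed in all 20 alternative settings, whereas those of EIF2AK1 and EIF2AK2 lay close to the threshold. In bulk RNA, fewer cells that carry a transcript and less of it per cell cannot be told apart.

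In p53 KO cells GCN2iB lowered 2 of the 8, EIF2AK3 and PPP1R15B, and raised 0, beside 20.1% of all tested genes called, 11.4% higher and 8.71% lower. Only PPP1R15B had groups that did not overlap, against 21.7% of all tested genes. Both calls were lost on omission of certain single libraries, named with each gene. The EIF2AK4 call did not pass in p53 KO cells, and no gene of the 8 showed a difference between the GCN2iB responses of the genotypes: 0 were called by edgeR, and 0 by DESeq2 and by voom, where edgeR called 1 of all tested genes (0.00539%). At an unadjusted p under 0.05 there was 1, IMPACT, whose response was 0.26 higher in p53 KO than in WT cells on the log2 scale (95% interval 0.042 to 0.48, adjusted p = 0.456, and 0.0953 to 0.748 over the alternatives). For EIF2AK4 the difference was 0.16 (95% interval -0.072 to 0.38, adjusted p = 0.694), so a response that differs between the genotypes is not shown and neither is an equal one.

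Between the genotypes, 1 of the 8 differed with vehicle, EIF2AK1, which was lower in p53 KO cells, beside 21.7% of all tested genes called, 9.63% higher and 12.1% lower. With GCN2iB 3 differed, PPP1R15A and PPP1R15B higher and GCN1 lower in p53 KO cells, beside 23.9% of all tested genes called, 12.7% higher and 11.2% lower. These 3 calls passed in all 20 alternatives. The groups did not overlap for 2 genes with vehicle (EIF2AK1 and GCN1, both lower in p53 KO) against 22.7% of tested genes, and for 5 with GCN2iB (IMPACT, PPP1R15A and PPP1R15B higher, EIF2AK1 and GCN1 lower) against 25.1%. Over the 4 pairwise comparisons and the difference of responses there were 40 tests of these genes and 11 calls. Of all tested genes, 25.2% were called for GCN2iB in WT cells and 20.1% for GCN2iB in p53 KO cells. Between the genotypes 21.7% were called with vehicle and 23.9% with GCN2iB, and 0.00539% for the difference of responses. Each group of libraries enters 2 of the pairwise comparisons, so the comparisons are not independent of each other.

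**Figure D2:**
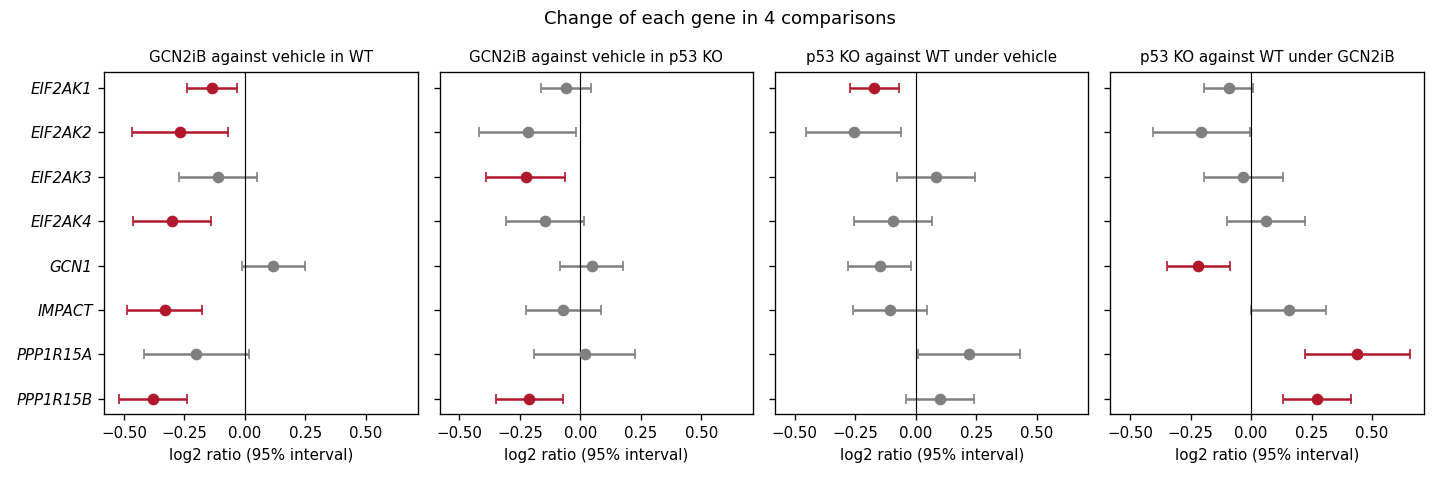
Log2 ratio with its 95% interval (horizontal axis) for each of the 8 genes (rows) in 4 comparisons (panels), from the edgeR quasi-likelihood fit. Red marks genes called at an adjusted p under 0.05, 5 in WT cells given GCN2iB, 2 in p53 KO cells given GCN2iB, 1 between the genotypes with vehicle and 3 between the genotypes with GCN2iB; no ratio exceeds 0.44 in size.

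EIF2AK4 (GRCh38, chr15:39934146-40035591, plus strand) encodes GCN2, the kinase that GCN2iB inhibits. In WT cells its level was 119, 106, 111 and 111 CPM in the 4 GCN2iB libraries, against 152, 139.5, 134 and 128 CPM in the 4 vehicle libraries, in order of replicate number. The groups did not overlap, since the highest GCN2iB library, number 1, stood below the lowest vehicle library, number 4. The fall was 1.23-fold (log2 -0.30 ± 0.078 SE, adjusted p = 0.00629), and the adjusted p lay between 0.000123 and 0.0361 over 20 alternatives. The p53 KO cells had EIF2AK4 at 123, 121, 128 and 95.2 CPM with GCN2iB, against 137, 132, 129 and 120.05 CPM with vehicle. These groups overlapped, with library 4 of the GCN2iB group far below the other 3. The ratio was log2 -0.15 ± 0.078 SE, adjusted p = 0.198, and -0.058 (adjusted p = 0.603) without that library. Between the genotypes EIF2AK4 was not called with vehicle (log2 -0.094, 95% interval -0.25 to 0.066, adjusted p = 0.434) or with GCN2iB (log2 0.062, 95% interval -0.10 to 0.22, adjusted p = 0.6099).

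GCN1 (chr12:120127203-120194710, minus strand), the ribosome-bound activator of GCN2, was not called with GCN2iB in either genotype in the main fit of all libraries. It was called higher in both with the trends on base composition removed, as given further on. In WT cells it was at 461, 459.8, 437 and 408 CPM with GCN2iB, against 388, 427, 420.2 and 392 CPM with vehicle. The first 3 GCN2iB libraries lay above all vehicle libraries and number 4 lay among them. The ratio did not pass (log2 0.12 ± 0.063 SE, adjusted p = 0.185), but GCN1 was called higher without all libraries numbered 4 (log2 0.16, adjusted p = 0.0453) and without the GCN2iB libraries numbered 4 (log2 0.15, adjusted p = 0.0488), omissions chosen after the data were seen. GCN1 in p53 KO cells was at 387, 399, 395 and 336 CPM with GCN2iB, against 347, 386, 375 and 360.4 CPM with vehicle, with library 4 of the GCN2iB group the lowest of all 16. Here too the ratio did not pass (log2 0.047 ± 0.063 SE, adjusted p = 0.654). Set by genotype, every p53 KO library given GCN2iB stood below every WT library given GCN2iB, and GCN1 was lower by 1.16-fold (log2 -0.22 ± 0.063 SE, adjusted p = 0.0139). With vehicle the p53 KO libraries were again all below the WT libraries, but the ratio missed the threshold (log2 -0.15 ± 0.063 SE, adjusted p = 0.1001).

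IMPACT (chr18:24426616-24453535, plus strand), the inhibitor that competes with GCN2 for GCN1, fell with GCN2iB in WT cells. There it was at 63.8, 62.5, 65.4 and 63.7 CPM with GCN2iB, against 91.1, 76.4, 78.00 and 76.4 CPM with vehicle. All 4 GCN2iB libraries lay close together and below all vehicle libraries, among which number 1 stood apart. The fall was 1.26-fold (log2 -0.33 ± 0.075 SE, adjusted p = 0.00227), and without vehicle library 1 it was log2 -0.26 (adjusted p = 0.0144). IMPACT in p53 KO cells was at 73.8, 72.01, 73.2 and 65.6 CPM with GCN2iB, against 87.02, 73.6, 70.7 and 67.4 CPM with vehicle. Those groups overlapped and the ratio did not pass (log2 -0.071 ± 0.075 SE, adjusted p = 0.551). With GCN2iB every p53 KO library was above every WT library, yet the genotype ratio missed the threshold (log2 0.16 ± 0.075 SE, adjusted p = 0.1402), as it did with vehicle (log2 -0.11 ± 0.074 SE, adjusted p = 0.349), where it passed without p53 KO library 1 (log2 -0.19, adjusted p = 0.0485).

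EIF2AK1 (chr7:6022244-6059230, minus strand), the heme-regulated kinase, was the steadiest of the 8 across libraries. In WT cells it was at 248, 245, 252 and 249.7 CPM with GCN2iB, against 282, 273, 277 and 261 CPM with vehicle. The groups did not overlap and the fall was 1.099-fold (log2 -0.14 ± 0.05 SE, adjusted p = 0.0476). This call was lost when any 1 of the 8 libraries was omitted, with adjusted p between 0.0686 (without vehicle library 4) and 0.177 (without vehicle library 3). EIF2AK1 in p53 KO cells was at 234, 235, 241 and 222 CPM with GCN2iB, against 250.1, 239, 243 and 239 CPM with vehicle. The groups overlapped and the ratio did not pass (log2 -0.059 ± 0.05 SE, adjusted p = 0.446). With vehicle, all p53 KO libraries lay below all WT libraries, and EIF2AK1 was lower by 1.13-fold (log2 -0.17 ± 0.05 SE, adjusted p = 0.0156). That difference passed whichever library was omitted, but not with library totals as the only scaling (adjusted p = 0.1403) or without a count filter (adjusted p = 0.106). With GCN2iB the genotypes were again apart, p53 KO below WT, and the ratio missed the threshold (log2 -0.093 ± 0.05 SE, adjusted p = 0.186). Exons of EIF2AK1 share 532 bases with AIMP2 on the opposite strand, and since it is not given whether the counting used strand, reads of AIMP2 may be counted here.

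EIF2AK2 (chr2:37099210-37157065, minus strand) encodes PKR, known as an interferon-induced gene. Its RefSeq promoter (GRCh38.p14) is shown because it holds, in capitals, a match to the core of the interferon-stimulated response element (GAAA, any 2 letters, GAAA). The RefSeq start lies inside the gene span given above, which is from GENCODE, so the stretch lies within that span. The stretch chr2:37156971-37157050 is printed on the minus strand, covering 70 bases before the RefSeq transcription start and 10 bases after it:
EIF2AK2: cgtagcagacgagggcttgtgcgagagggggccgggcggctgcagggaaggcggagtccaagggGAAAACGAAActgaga
A match of this kind, on either strand, was present in 3.57% of 35116 promoters of 250 bases before to 50 bases after the start. It is a description of letters and says nothing of binding.

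In WT cells EIF2AK2 was at 46.3, 41.2, 43.3 and 42.5 CPM with GCN2iB, against 61.1, 51.3, 51.5 and 45.5 CPM with vehicle. The groups overlapped, GCN2iB library 1 lying above vehicle library 4. The fall was 1.205-fold (log2 -0.27 ± 0.10 SE, adjusted p = 0.04196). It passed on omission of vehicle library 4 (adjusted p = 0.0222) and of none of the other 7, where the adjusted p was between 0.0506 without GCN2iB library 1 and 0.195 without vehicle library 1. EIF2AK2 in p53 KO cells was at 39.6, 37.5, 41.7 and 31.9 CPM with GCN2iB, against 51.8, 41.3, 43.6 and 37.98 CPM with vehicle, and the ratio did not pass (log2 -0.22 ± 0.10 SE, adjusted p = 0.115), though it did without vehicle library 4 (adjusted p = 0.0466). Between the genotypes EIF2AK2 was not called, with log2 ratios of -0.26 with vehicle (adjusted p = 0.0573) and -0.21 with GCN2iB (adjusted p = 0.129). The vehicle difference passed without WT library 4 (adjusted p = 0.0225) or p53 KO library 1 (adjusted p = 0.00822), without all libraries numbered 4 (adjusted p = 0.0302) and without a count filter (adjusted p = 0.0124). Without a count filter the GCN2iB difference passed as well (adjusted p = 0.0385), and both passed with the trends on base composition removed, as given further on. Exons of EIF2AK2 share 35 bases with GPATCH11 and 401 with a processed pseudogene, both on the opposite strand.

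EIF2AK3 (chr2:88556741-88627576, minus strand), the kinase of the endoplasmic reticulum, fell with GCN2iB in p53 KO cells. There it was at 35.6, 33.7, 35.1 and 30.2 CPM with GCN2iB, against 43.7, 39.8, 40.1 and 33.7 CPM with vehicle. Vehicle library 4 lay inside the range of the GCN2iB libraries and the other 3 vehicle libraries above it. The fall was 1.17-fold (log2 -0.23 ± 0.079 SE, adjusted p = 0.0446). It was lost without vehicle library 1 (adjusted p = 0.149), 2 (0.0919) or 3 (0.102), or without GCN2iB library 2 (0.0866) or 4 (0.137), and with only these groups in the fit (0.0903). In WT cells EIF2AK3 was at 32.8, 34.7, 35.7 and 34.3 CPM with GCN2iB, against 38.6, 38.3, 38.9 and 32.9 CPM with vehicle. Leaving aside vehicle library 4, all vehicle libraries were above all GCN2iB libraries, and the ratio did not pass (log2 -0.11 ± 0.079 SE, adjusted p = 0.328). Between the genotypes EIF2AK3 was not called with vehicle (log2 0.082, adjusted p = 0.508) or GCN2iB (log2 -0.032, adjusted p = 0.809). Antisense genes cover 819 bases of its exons, so its count too may hold reads of the other strand.

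PPP1R15B (chr1:204403387-204411791, minus strand), the constitutive partner of protein phosphatase 1, was the one gene of the 8 called lower with GCN2iB in both genotypes. In WT cells it was at 71.2, 64.3, 68.7 and 69.7 CPM with GCN2iB, against 101, 86.4, 88.99 and 81.2 CPM with vehicle. The groups stood well apart, and the fall was 1.303-fold (log2 -0.38 ± 0.068 SE, adjusted p = 2.68e-04). In p53 KO cells it was at 86.3, 83.3, 84.5 and 76.5 CPM with GCN2iB, against 104, 93.96, 94.8 and 89.8 CPM with vehicle. Every GCN2iB library lay below every vehicle library, and the fall was 1.16-fold (log2 -0.21 ± 0.068 SE, adjusted p = 0.0296). The second call was lost without vehicle library 1 (adjusted p = 0.09298), 2 (0.05001), or 3 (0.0582) and without GCN2iB library 2 (0.0603) or 4 (0.0849). With GCN2iB, p53 KO libraries were all above WT libraries, and PPP1R15B was higher by 1.21-fold (log2 0.27 ± 0.068 SE, adjusted p = 0.00514). With vehicle the genotypes overlapped (log2 0.10 ± 0.068 SE, adjusted p = 0.324), and the difference of the responses was not called (log2 0.17, 95% interval -0.027 to 0.37, adjusted p = 0.605).

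PPP1R15A (chr19:48872392-48876057, plus strand), the stress-induced partner, was scarce, with 118 to 291 counts per library. In WT cells it was at 4.97, 5.71, 5.24 and 5.72 CPM with GCN2iB, against 5.97, 6.45, 5.33 and 7.08 CPM with vehicle. The groups overlapped and the ratio did not pass (log2 -0.20 ± 0.11 SE, adjusted p = 0.1698). In p53 KO cells it was at 7.29, 6.91, 6.85 and 8.21 CPM with GCN2iB, against 6.81, 6.88, 7.36 and 7.95 CPM with vehicle. These ranges lay over each other (log2 0.018 ± 0.10 SE, adjusted p = 0.923), and the sign of this ratio turned in 8 of 20 alternatives. With GCN2iB every p53 KO library was above every WT library, the widest genotype difference among the 8 genes at 1.36-fold (log2 0.44 ± 0.10 SE, adjusted p = 0.00326, and 0.000162 to 0.0175 over 20 alternatives). With vehicle the p53 KO libraries overlapped the WT libraries and the ratio did not pass (log2 0.22 ± 0.10 SE, adjusted p = 0.136). The difference of the GCN2iB responses was not called (log2 0.22, 95% interval -0.081 to 0.52, adjusted p = 0.678).

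The promoters of the phosphatase subunits are shown because PPP1R15A is known as a target of the stress response and PPP1R15B fell with GCN2iB here. From RefSeq (GRCh38.p14), the 250 bases before the start of PPP1R15A lie at chr19:48872171-48872420 on the plus strand and those of PPP1R15B at chr1:204411818-204412067, printed on the minus strand. The RefSeq starts differ from the ends of the GENCODE spans given above, and the stretch of PPP1R15A runs into its span. Capitals mark TGACGTCA, the cyclic AMP response element that ATF and CREB factors bind, in PPP1R15A, and a match to TGATGNAA, the C/EBP-ATF response element, in PPP1R15B:
PPP1R15A: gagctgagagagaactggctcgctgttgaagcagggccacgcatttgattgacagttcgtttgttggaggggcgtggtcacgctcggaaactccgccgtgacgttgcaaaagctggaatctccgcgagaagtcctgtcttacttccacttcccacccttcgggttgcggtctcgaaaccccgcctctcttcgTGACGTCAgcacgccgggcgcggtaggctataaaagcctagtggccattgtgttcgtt
PPP1R15B: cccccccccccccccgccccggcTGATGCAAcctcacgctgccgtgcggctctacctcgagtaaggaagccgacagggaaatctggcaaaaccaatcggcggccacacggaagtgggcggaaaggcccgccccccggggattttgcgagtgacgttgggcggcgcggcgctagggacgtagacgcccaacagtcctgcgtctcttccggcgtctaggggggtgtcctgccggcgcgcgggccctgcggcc
TGACGTCA was found with its first base at -58 in PPP1R15A and in none of the other 6 promoters of these genes in the table, and TGATGNAA at -227 in PPP1R15B and in none of the other 6. EIF2AK1 was not in the table. Both strands were searched over 250 bases before to 50 bases after the start, where 1.85% of 35116 promoters held TGACGTCA and 3.62% held TGATGNAA.

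Of 18 promoters of transcripts downstream of eIF2 phosphorylation, 5 held TGATGNAA (ASNS, ATF3, CEBPG, CHAC1 and SLC3A2), 0 held TGACGTCA and 1, ATF5, held the interferon element. The 8 letters of PPP1R15B are set beside those of ASNS, which makes asparagine, and CHAC1, which degrades glutathione, in windows of 28 bases (PPP1R15B at chr1:204412027-204412054, ASNS at chr7:97872459-97872486 and CHAC1 at chr15:40953252-40953279, each printed on the minus strand so that the motif reads the same way, with the motif in capitals):
PPP1R15B: ccgccccggcTGATGCAAcctcacgctg
ASNS: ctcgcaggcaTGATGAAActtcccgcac
CHAC1: ctggcaggagTGATGCAAcggcagggga
The letters of PPP1R15B and CHAC1 are the same 8 and ASNS differs from them at the N. All 3 transcripts fell with GCN2iB in WT cells, with log2 ratios of -0.38 for PPP1R15B, -0.94 for ASNS and -3.25 for CHAC1, and whether any factor bound there was not measured. Of the other holders, CEBPG (log2 -0.63) and ATF3 (-0.46) fell in WT cells. SLC3A2, whose match begins at 38 after the start, was the 1 gene of the 20 not called there (log2 -0.084, adjusted p = 0.492). The downstream genes whose searched promoters held no match fell as well. Whether the motif bears on the fall was not tested.

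Within a library the 4 kinases can be set against each other without regard to its scaling, as the share of each in their summed CPM per kb. EIF2AK4 made up 15.3, 14.1, 14.3 and 14.4% in WT cells with GCN2iB, against 16.6, 16.1, 15.3 and 15.7% in WT cells with vehicle. The highest GCN2iB share met the lowest vehicle share, and the other GCN2iB shares lay below. Among p53 KO libraries it made up 16.4, 16.3, 16.7 and 14.1% with GCN2iB, against 16.5, 16.9, 16.4 and 15.99% with vehicle, where library 4 with GCN2iB alone was low. EIF2AK1 held the bulk of the sum, with 68.4 ± 1.68% in p53 KO with GCN2iB, 66.4 ± 1.49% in p53 KO with vehicle, 69.4 ± 0.446% in WT with GCN2iB and 67.9 ± 1.099% in WT with vehicle. EIF2AK3 had its highest mean share in p53 KO with vehicle, 10.97 ± 0.757%, against 9.43 ± 0.414% in WT with vehicle, and those groups did not overlap. PPP1R15A was the minor part of the phosphatase pair, with 12.5, 12.3, 12.05 and 15.4% of PPP1R15A plus PPP1R15B in p53 KO with GCN2iB, 9.97, 11.01, 11.6 and 13.01% in p53 KO with vehicle, 10.5, 13.1, 11.4 and 12.2% in WT with GCN2iB and 9.12, 11.2, 9.19 and 12.8% in WT with vehicle. The 4 groups overlapped in this share. The shares rest on exon lengths. In WT cells with vehicle the mean share of EIF2AK4 was 15.9% with all exons and 25.2% with the longest coding transcript. That of EIF2AK1 was 67.9% and 61.5%. The shares were taken with the trends on base composition and length, given further on, left in, and no test was run on them.

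**Figure D3:**
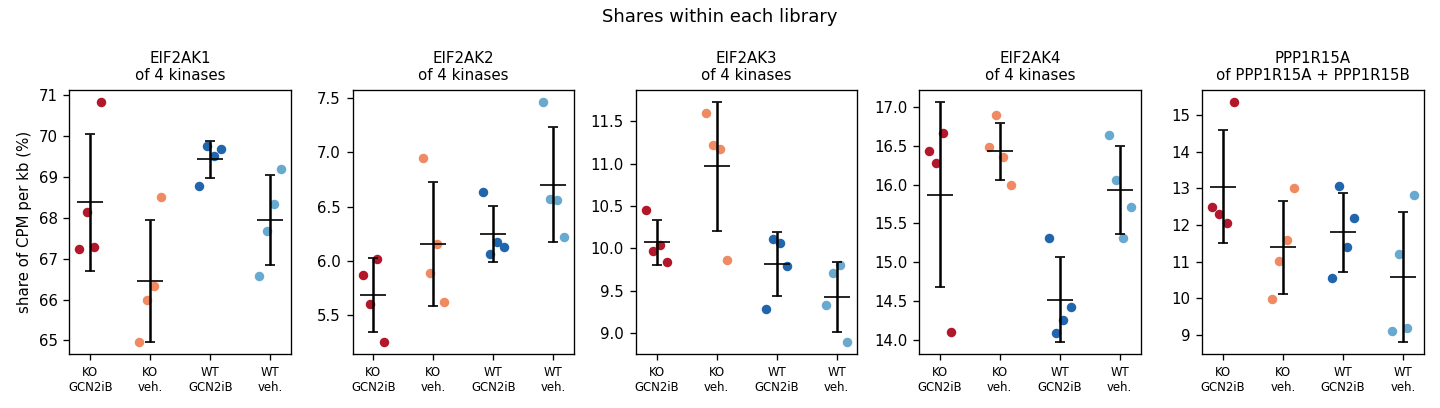
Share of each kinase in the summed CPM per kb of the 4 kinases, and of PPP1R15A in PPP1R15A plus PPP1R15B (vertical axes in percent, not starting at 0), per library in the 4 groups, with mean ± SD over 4 libraries (veh., vehicle). The share of EIF2AK4 was 14.1 to 15.3% in WT cells with GCN2iB and 15.3 to 16.6% in WT cells with vehicle, and library 4 of p53 KO with GCN2iB stood at 14.1%.

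Most of the genes also varied together from library to library within groups. Libraries numbered 4 were the lowest of their group in 3 of 4 groups for each of EIF2AK1, EIF2AK2, EIF2AK3, EIF2AK4, IMPACT and PPP1R15B, and in 2 of 4 for GCN1. PPP1R15A ran the opposite way, being highest in number 4 in 4 of 4 groups, while PPP1R15B was highest in number 1 in 4 of 4. With the group means removed, Pearson's r over the 16 libraries was 0.94 between EIF2AK2 and PPP1R15B and 0.89 between EIF2AK2 and IMPACT, and between PPP1R15A and the other 7 it ran from -0.75 (EIF2AK1) to -0.51 (GCN1). Leaving PPP1R15A aside, GCN1 followed the others least, with r between -0.089 (IMPACT) and 0.49 (EIF2AK4). These are descriptions, as the libraries share replicate numbers and the genes share the scaling of each library.

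This scatter moved with base composition and transcript length. The genes differ in GC content, from 38.0% in the longest transcript of IMPACT to 58.8% in that of PPP1R15A. When smooth curves against GC content and length were taken out of every library, a step chosen after the data were seen and one that also takes out any part of a group difference that follows such a trend, the SD within groups narrowed for all 8 genes. It was 0.051 without the trend and 0.16 with it for EIF2AK2, 0.045 and 0.11 for IMPACT, and 0.077 and 0.12 for EIF2AK4, in log2 units. With the trends removed, GCN1 was called higher with GCN2iB in WT cells (log2 0.14, adjusted p = 0.003798) and in p53 KO cells (0.13, adjusted p = 0.00704), and the EIF2AK1 call in WT cells was lost (-0.055, adjusted p = 0.199). EIF2AK4, IMPACT and PPP1R15B kept their WT calls with smaller ratios (-0.22, -0.23 and -0.28), as did EIF2AK2 (-0.16), and PPP1R15A was called lower in WT cells (log2 -0.25, adjusted p = 0.0358). Between the genotypes more of the genes were called with the trends removed. So were more genes of the whole series, 5563 against 4025 with vehicle and 5746 against 4441 with GCN2iB. With vehicle EIF2AK2 (log2 -0.25, adjusted p = 9.21e-05), GCN1 (log2 -0.10, adjusted p = 0.0426) and IMPACT (log2 -0.11, adjusted p = 0.0486) joined EIF2AK1 as lower in p53 KO cells, and PPP1R15A (log2 0.27, adjusted p = 0.0196) and PPP1R15B (log2 0.12, adjusted p = 0.0201) were called higher. With GCN2iB the calls added were EIF2AK1 (log2 -0.11, adjusted p = 0.009101) and EIF2AK2 (log2 -0.21, adjusted p = 9.80e-04), both lower in p53 KO cells. What lies behind the trend was not tested.

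**Figure D4:**
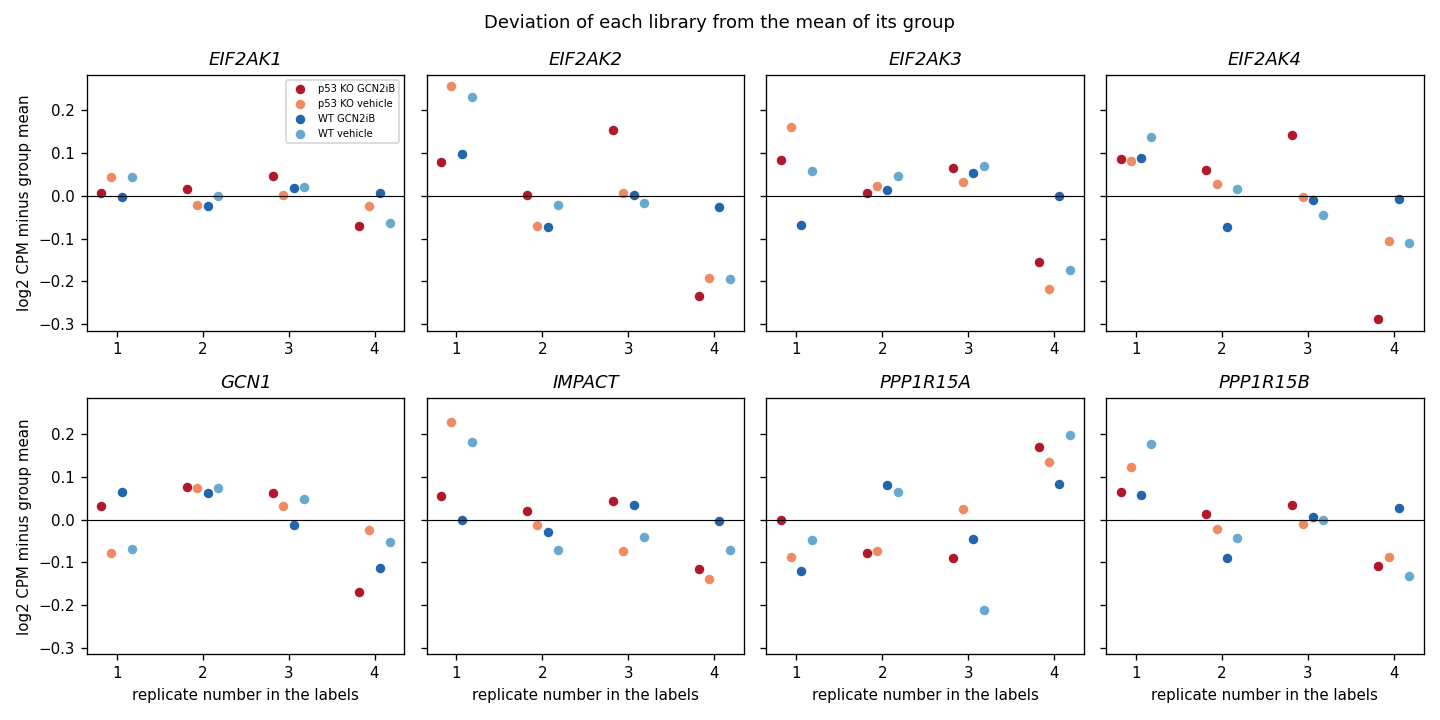
Deviation of each library from the mean of its group in log2 CPM (vertical axis) by replicate number (horizontal axis), for the 8 genes, with 1 colour per group. Libraries numbered 4 lie lowest in 3 of 4 groups for 6 of the genes, and highest in 4 of 4 groups for PPP1R15A.

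Around these genes, the transcripts that follow eIF2 phosphorylation fell together with GCN2iB. Of 20 such genes 19 were called lower and 0 higher in WT cells, beside 13.6% of all tested genes lower and 11.6% higher. Their median log2 ratio there was -0.76, beside -0.03 over all tested genes. In p53 KO cells 18 were called lower and 0 higher, beside 8.71% of all tested genes lower and 11.4% higher. The median there was -0.81, beside -0.01 over all tested genes. This list was chosen with earlier results of these data known, so its counts and medians are not an independent test. ATF4, the transcription factor translated when eIF2 is phosphorylated, was at 213 ± 11.7 CPM with GCN2iB, against 496 ± 40.2 CPM with vehicle in WT cells (log2 -1.22 ± 0.065 SE, adjusted p = 5.61e-12). ATF4 in p53 KO cells was at 284 ± 6.095 CPM with GCN2iB, against 504 ± 33.5 CPM with vehicle (log2 -0.83 ± 0.064 SE, adjusted p = 6.28e-09). The smallest adjusted p besides that of ATF4 were those of CHAC1 (log2 -3.25 in WT, -2.78 in p53 KO) and ADM2, a secreted peptide (-1.73 and -1.47), with SESN2, a sestrin, in p53 KO cells (-1.13). PPP1R15A, known to belong to the same response, had ratios of -0.20 in WT and 0.018 in p53 KO cells and was called in neither, though it was called lower in WT cells with the trends removed, as given above.

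With GCN2iB, 15 of the 20 downstream transcripts were called higher and 2 lower in p53 KO than in WT cells, beside 12.7% of all tested genes higher and 11.2% lower. Their median was 0.33 beside 0.03 over all tested genes, and PPP1R15A and PPP1R15B were higher too. ATF4 differed by log2 0.42 ± 0.064 SE, adjusted p = 3.99e-05, ADM2 by 0.69 and ATF3, a stress transcription factor, by 0.63, while SESN2 was lower (log2 -0.91). With vehicle 8 were called higher and 1 lower, beside 9.63% of all tested genes higher and 12.1% lower. The median there was 0.17 beside 0.01 over all tested genes. The smallest adjusted p were those of ATF3 (log2 0.67), DDIT3, which encodes CHOP (0.86), and ADM2 (0.43). The 1 gene called in the main fit for a difference of GCN2iB responses was SESN2, also known as a p53 target (log2 -0.74 ± 0.10 SE, adjusted p = 0.00142, p53 KO minus WT). At an unadjusted p under 0.05 in the same edgeR test there were 11 of the 20 downstream transcripts. With the trends on base composition removed, 2 of the 20 were called higher and 2 lower, beside 12 of all tested genes. With replicate number in the fit the calls were 2 higher and 2 lower as well, beside 61 of all tested genes.

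The substrate and its partners moved in both directions. Of 9 genes of eIF2, eIF2B and EIF5, 4 rose and 3 fell in WT cells (median 0.01), where 11.6% of all tested genes were called higher and 13.6% lower. In p53 KO cells 3 rose and 2 fell (median 0.11), beside 11.4% higher and 8.71% lower. EIF2S1, the subunit that the kinases phosphorylate, was at 294 ± 8.91 CPM with GCN2iB, against 244 ± 21.6 CPM with vehicle in WT cells (log2 0.27 ± 0.063 SE, adjusted p = 0.00319), and rose in p53 KO cells too (log2 0.32). EIF2B4, a subunit of the exchange factor, rose by 0.24 in WT and 0.32 in p53 KO cells on the log2 scale. EIF5, which drives GTP hydrolysis on eIF2, was at 146 ± 11.1 CPM with GCN2iB, against 255 ± 19.1 CPM with vehicle in WT cells (log2 -0.80 ± 0.071 SE, adjusted p = 3.09e-08), and fell in p53 KO cells too (log2 -0.49). EIF5 was the widest change among these 9 genes in each genotype, and it was higher in p53 KO than in WT cells with GCN2iB (log2 0.28), where EIF2S3, another eIF2 subunit, was lower (-0.20).

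Of 12 cofactors of the kinases, 3 rose and 6 fell in WT cells (median -0.13, and -0.03 over all tested genes) and 4 rose and 3 fell in p53 KO cells (median 0.00476, and -0.01 over all tested genes), against the same shares of all tested genes, 11.6% higher and 13.6% lower in WT and 11.4% and 8.71% in p53 KO cells. HSPA5, the chaperone that holds PERK inactive in the endoplasmic reticulum, was at 1667 ± 105 CPM with GCN2iB, against 2018 ± 25.97 CPM with vehicle in WT cells (log2 -0.28 ± 0.053 SE, adjusted p = 5.44e-04). Its level in p53 KO cells was 2285 ± 82.1 CPM with GCN2iB, against 3066 ± 46.4 CPM with vehicle (log2 -0.42 ± 0.053 SE, adjusted p = 5.87e-06). It was higher in p53 KO than in WT cells with vehicle (log2 0.60) and with GCN2iB (0.46). DNAJC3, which binds and inhibits PKR and PERK, followed it, with log2 ratios of -0.38 in WT and -0.47 in p53 KO cells and higher levels in p53 KO cells (log2 0.43 with vehicle, 0.34 with GCN2iB). PRKRA, which activates PKR, rose in WT cells (0.40) and was not called in p53 KO cells (0.19, adjusted p = 0.0768). OMA1, the protease that signals mitochondrial stress to HRI, fell in p53 KO cells (-0.28) and in WT cells (-0.24). NCK1, an adaptor, was higher in p53 KO than WT cells with GCN2iB (0.27, not called with the trends removed). RPLP0, a ribosomal stalk protein whose reads may also fall on pseudogene copies, was lower in p53 KO than WT cells with vehicle (-0.35). The 4 cofactors that rose with GCN2iB in p53 KO cells were RPLP0 (0.27), RPLP1 (0.45), RPLP2 (0.49) and MAP3K20 (0.27). With library totals as the only scaling 3 cofactors rose there. RPLP1 (0.37) and RPLP2 (0.50) rose in WT cells too. Of the 3 catalytic subunits of protein phosphatase 1, PPP1CA rose in WT cells (0.25) and was not called in p53 KO cells (0.20, adjusted p = 0.0928). PPP1CC rose in p53 KO cells (0.17, not called with library totals as the only scaling or without the libraries numbered 4) and was not called in WT cells (0.12, adjusted p = 0.115). PPP1CB was lower in p53 KO than WT cells with vehicle (-0.26, not called with library totals). Of the cofactors and catalytic subunits, 0 were called for a difference of responses. Without the libraries numbered 4 the downstream counts were 19 and 18 lower again.

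**Figure D5:**
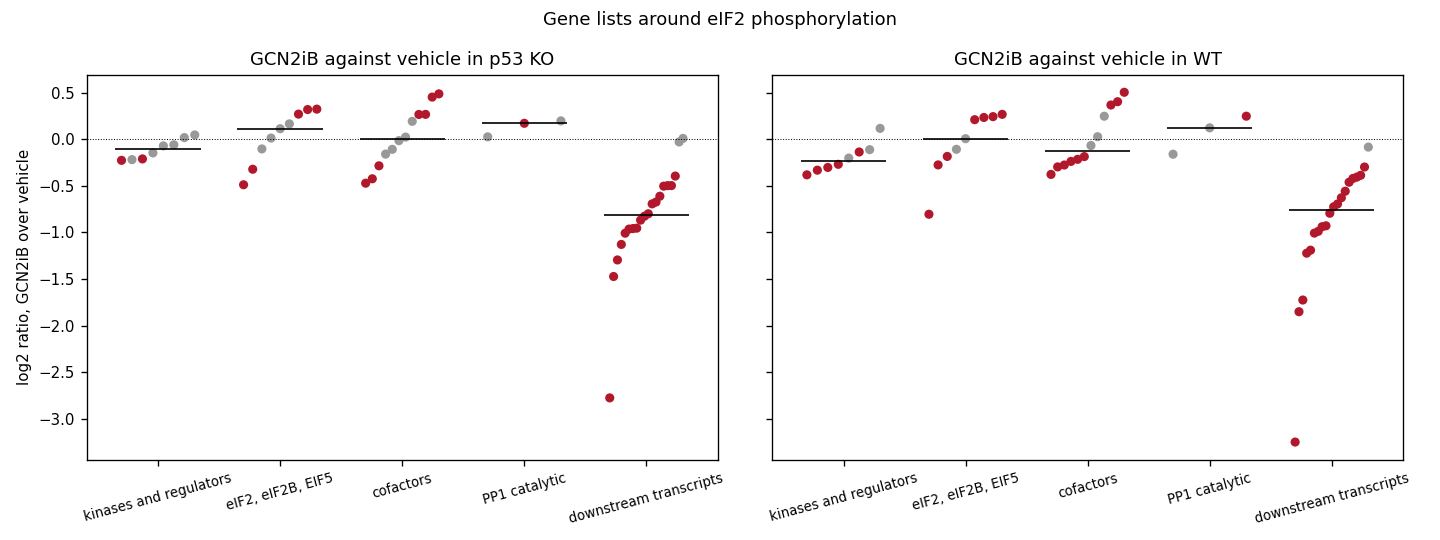
Log2 ratio of GCN2iB over vehicle (vertical axis) in p53 KO cells (left) and WT cells (right) for the 8 genes and 4 lists around them, 1 point per gene, red where called at an adjusted p under 0.05, with the median as a line. The downstream transcripts have medians of -0.81 in p53 KO and -0.76 in WT cells, while those of the 8 genes are -0.11 and -0.24.

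Among 9123 tested genes with a mean of at least 5 CPM, the pattern of EIF2AK4 over the 16 libraries was most like those of WASHC5 (Pearson's r = 0.97, Spearman's rho = 0.98), SCARB2 (0.97 and 0.97) and LARS1 (0.96 and 0.98). For the other genes the closest were CLCN3 and ABCC4 for EIF2AK1 (r = 0.97 and 0.96), SESN3 and KIAA0232 for EIF2AK2 (0.98 and 0.97), HIPK2 for EIF2AK3 (0.93) and CABIN1 and ZBED4 for GCN1 (0.98 and 0.94). IMPACT was nearest to CMTM6 and GALNT1 (0.96 and 0.95), PPP1R15B to VTI1A and SERINC1 (0.98 and 0.97), and PPP1R15A to CCDC24 and GGPS1 (0.90 and 0.89). These values describe likeness over libraries that share treatment, genotype and the trends with base composition, and carry no test.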

How the data were processed

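RNA of 16 LNCaP libraries, 4 for each of 4 groups, was measured. The authors deposited whole-number read counts for each gene, not normalized. Per the submitters' processing notes the tools were featureCounts, HISAT2, DESeq2 and Trim Galore and the build GRCh38. Their versions, the annotation release and the strand setting: not given in the sources used here. Columns were matched to samples by title, with 0 left over.

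Tests used edgeR 4.0.16, with DESeq2 1.42.0 and limma 3.58.1 (voom) as alternatives, under R 4.3.3, and figures used matplotlib 3.10.9 and pandas 2.3.3 under Python 3.11.15. The filterByExpr rule left 18549 genes, holding at least 99.906% of the counts of each library. Totals were scaled by TMM, CPM are on the scaled totals, and the quasi-likelihood fit (robust) took all 16 libraries, each group having its own mean. All tests were two-sided and adjusted by Benjamini-Hochberg over all tested genes of a comparison (threshold 0.05). The edgeR fit was also run on simulated counts, with changes planted in WT cells with GCN2iB alone. Those counts held no trend on GC content or length and no replicate structure, so the run does not speak to these. SEs were derived from the F statistic as the size of the log2 ratio over the root of F. Called means past that threshold.

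The 8 genes and the lists around them were chosen with earlier results of these data known. The text names the 8 genes in every comparison, CDKN1A and MDM2 as checks of genotype, up to 3 called genes per list and comparison with the smallest adjusted p, ATF4, and the genes nearest in pattern by Pearson's r of log2(CPM + 1). The level of the targeted gene, and 1 gene near in pattern, are not reported here. ASNS stands beside the PPP1R15B promoter for its motif, and SESN2 for its response, chosen after their values were seen. RPLP1, RPLP2 and MAP3K20 were named after their values were seen, to complete the cofactors that rose in p53 KO cells. Positions and exon lengths are from GENCODE release 29, promoters from RefSeq tables. Trends on GC content and length used splines (5 degrees of freedom) over 12999 genes whose mean count reached 50. Other scalings, filters, tools, the replicate block and omission of each library were tried.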

Additional observations from a re-analysis of the deposited data

Results flagged for a closer look

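In 52 groups of 4 libraries checked, 4 held a library whose gap to its nearest neighbour was a large part of the range of the group, and chance gives about 1 in 20 such groups. EIF2AK3 in WT with vehicle had replicate 4 low at 32.9 CPM. IMPACT in WT with vehicle had replicate 1 high at 91.1 CPM. Replicate 4 of p53 KO with GCN2iB stood apart in both kinds of share, low in the share of EIF2AK4 among the 4 kinases at 14.1% and high in the share of PPP1R15A among the phosphatase pair at 15.4%. The shares hold the trends on GC content and length. In this group with the trends removed, PPP1R15A was at 7.52, 6.98, 7.32 and 7.40 CPM in order of replicate number. PPP1R15B was at 85.3, 83.8, 81.7 and 84.6 CPM, and EIF2AK4 at 123.1, 122.6, 126.5 and 105.9 CPM.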

How the results depend on the processing

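In WT cells given GCN2iB, 3 of the 8 genes were called with DESeq2 size factors or with the filter set at a mean of 50 counts, and 3 to 4 on omission of single libraries, against 5 in the fit reported above. Calls over all tested genes are given below for removal of the trends and for the replicate block alone. Under the other settings and omissions, a change in the count of the 8 genes is not set beside the whole series. In p53 KO cells given GCN2iB the 2 calls became 1 with only the compared groups in the fit, 0 without the GCN2iB libraries numbered 4, and 0 to 3 on omission of single libraries. Between the genotypes with vehicle the 1 call became 2 without all libraries numbered 4, with EIF2AK2 lower as well, and 1 to 3 on omission of single libraries, and with library totals as the only scaling the 1 gene called was PPP1R15A, higher in p53 KO cells (log2 0.28, adjusted p = 0.0477), in place of EIF2AK1. With GC and length trends removed, 6 genes were called there (EIF2AK1, EIF2AK2, GCN1 and IMPACT lower, PPP1R15A and PPP1R15B higher in p53 KO cells) and 5 between the genotypes with GCN2iB (EIF2AK1, EIF2AK2 and GCN1 lower, PPP1R15A and PPP1R15B higher). Removing the trends, which was done for 17678 genes, also raised the calls over the whole series. They were 5563 against 4025 between the genotypes with vehicle and 5746 against 4441 with GCN2iB. For GCN2iB they were 5782 against 4677 in WT cells and 5209 against 3734 in p53 KO cells. The cause of these shifts was not tested.

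Same-numbered libraries correlated above 0.1 in their deviations in 13 of 24 pairs (median 0.1185 against -0.0470 in other pairs), 11 of 16 libraries correlated best with their own number, and the labels name no pairing, so the numbers were not taken as pairs. The replicate block gave 4 calls among the 8 genes in p53 KO cells given GCN2iB (EIF2AK2 and EIF2AK4 lower in addition), 3 between the genotypes with vehicle (EIF2AK2 and GCN1 lower in addition) and 5 with GCN2iB (EIF2AK2 lower and IMPACT higher in addition), and with the trends removed as well 4, 6 and 5. The calls over all tested genes with the block and the trends removed together are not given here. Over all tested genes the block gave 6139 calls against 4677 without it for GCN2iB in WT cells, 5301 against 3734 for GCN2iB in p53 KO cells, 5203 against 4025 between the genotypes with vehicle, 5775 against 4441 with GCN2iB, and 61 against 1 for the difference of responses.

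Some ratios near 0 changed sign. In p53 KO cells given GCN2iB, GCN1 stood at -0.021 with library totals, PPP1R15A at -0.054 with library totals, -0.011 with the stricter filter, -0.039 with trends removed, -0.045 with the replicate block as well, and -0.044 without GCN2iB libraries numbered 4, and on omission of single libraries PPP1R15A ran between -0.043 and 0.064 and IMPACT between -0.12 and 0.0089. EIF2AK3 between the genotypes with GCN2iB was at 0.017 without GCN2iB libraries numbered 4, 0.00054 without all numbered 4, and between -0.086 and 0.018 on omission of single libraries, where EIF2AK4 ran between -0.0055 and 0.15. The EIF2AK2 difference of responses was -0.00038 with the stricter filter and ran between -0.041 and 0.13 on such omission. PPP1R15A, at no more than 291 counts, is the gene whose precision depth limits most.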
